A study of Rattus norvegicus with 8 samples.

Results

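The 10 genes described here encode neuropeptide precursors that sympathetic neurons release beside noradrenaline or that mark subsets of them: Npy, Gal, Sst, Vip, Adcyap1, Tac1, Penk, Calca, Cartpt and Nts. Each was taken as 1 RefSeq record, chosen by its identifier and not by its values, so that 10 of the 18314 records in the files were members. The set of genes itself was chosen with earlier results of these data known. RNA came from the right stellate ganglia of 4 male SHR (spontaneously hypertensive rats) and 4 male Wistar rats, all 16 weeks old and with no treatment in the labels, as 1 library per rat. The authors compared hypertensive with normotensive animals. Wistar is an outbred stock and not the inbred strain most often paired with the SHR, so blood pressure and all other differences of genotype cannot be told apart in these data.

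Neuropeptides are cut from precursor proteins, packed into large dense core vesicles and released mainly during strong or prolonged firing. The stellate ganglion holds the cell bodies of postganglionic neurons that supply the heart, and most of them are noradrenergic neurons that also make neuropeptide Y. After axotomy, or under cytokines that signal through gp130, adult sympathetic neurons are known to make more galanin, VIP and PACAP, and VIP and CGRP are also found in the minority of sympathetic neurons that are cholinergic.

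Estimated counts summed to between 25820299 and 35509074 per rat. The noradrenergic neuron genes Th and Dbh, which encode enzymes of noradrenaline synthesis, were abundant in every rat, from 1826 to 2397 TPM (a share of all transcripts that takes their length into account) for Th and from 3643 to 6766 TPM for Dbh. Both libraries numbered 1 stood apart in the summed TPM of 5 adipocyte markers, which was 65.3 in Wistar 1 and 150 in SHR 1 against 6.57 to 24.9 in the other 6 rats. The values without these rats are therefore given beside the results they touch. In whole ganglia, fewer cells of a type cannot be told apart from less RNA per cell.

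Between the strains, Gal, Vip and Adcyap1 were lower in SHR, each by about 3- to 4-fold, and no member was higher past the threshold. Npy, the dominant transcript of the set, Sst and Cartpt did not pass the threshold in either direction. Calca was also lower in SHR once the reads of its 3 records were added together. Penk was not called, and most of its difference between the strain means came from 1 Wistar rat. The test was edgeR's quasi-likelihood test over 13659 records with enough reads, and a record was called at a Benjamini-Hochberg adjusted p under 0.05. Of the 10 members, 8 were tested, 3 were called, and all 3 of them were lower in SHR. Over all tested records 2.85% were called, 1.69% as lower in SHR. edgeR gave 4 members lower and 0 higher at an unadjusted p under 0.05, where 8.56% of all tested records were lower and 8.29% higher. DESeq2 with a length offset called 3 members lower and 0 higher at an adjusted p under 0.05, and 3.49% of all its records as lower.

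Sequences at the starts of Vip, Gal, Calca and Adcyap1, which were lower in SHR, and of Sst and Cartpt, which were not called, are shown because many neuropeptide genes are known to respond to cyclic AMP through CREB, whose core site is TGACG and whose full palindrome is TGACGTCA. They are from the RefSeq-derived table for build GRCr8 and run 5′ to 3′ on the strand of the gene. The first 4 give the 150 bases that end just before the annotated start, and the last 2 give 30 bases around the palindrome. Capitals mark TGACG, or the whole palindrome, as read on the printed strand.
Vip, chr1:44470330-44470479, plus strand: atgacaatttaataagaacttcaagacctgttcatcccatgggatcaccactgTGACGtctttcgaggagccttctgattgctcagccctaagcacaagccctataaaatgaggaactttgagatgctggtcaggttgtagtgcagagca
Gal, chr1:210084573-210084722, minus strand: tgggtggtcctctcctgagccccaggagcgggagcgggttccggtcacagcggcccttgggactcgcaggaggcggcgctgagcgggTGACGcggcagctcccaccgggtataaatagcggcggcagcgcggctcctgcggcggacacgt
Calca, chr1:178317530-178317679, minus strand: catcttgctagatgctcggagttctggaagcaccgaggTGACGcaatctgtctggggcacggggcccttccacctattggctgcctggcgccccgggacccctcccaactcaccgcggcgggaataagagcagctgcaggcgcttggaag
Adcyap1, chr9:120556474-120556623, minus strand: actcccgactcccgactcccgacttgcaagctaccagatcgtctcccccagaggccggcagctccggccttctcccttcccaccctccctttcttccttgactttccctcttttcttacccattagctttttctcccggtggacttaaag
Sst, chr11:90461537-90461566, plus strand: gcctccttggcTGACGTCAgagagagagtt
Cartpt, chr2:32991359-32991388, minus strand: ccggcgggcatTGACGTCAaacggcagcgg
Of the 10 genes, 9 had a promoter entry of 300 bases, which is 250 before and 50 after the start. TGACG, searched on both strands, occurred in 7 of these 9 and in 21.2% of all 33469 promoters of that length. It began 97 bases before the start in Vip, 63 in Gal and 112 in Calca, while the Adcyap1 and Npy windows held no match. TGACGTCA, which contains TGACG on both strands, occurred in 2 of the 9, Sst and Cartpt, and in 1.83% of all promoters. In Cartpt it began 142 bases before the annotated start, and in Sst at base 3 counted from that start. Where transcription begins in these ganglia was not measured. A match describes these letters only and is not evidence of binding. A part of cyclic AMP in the strain differences was not tested.

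By level, Npy stood far above the other neuropeptide genes. Neuropeptide Y is a vasoconstrictor cotransmitter that also restrains vagal transmission in the heart. Its record NM_012614 reached 18370, 16470, 14140 and 17270 TPM in Wistar 1 to 4, and 18850, 21580, 17440 and 18070 TPM in SHR 1 to 4. By mean TPM it held rank 3 of all 18314 records in each strain. With the records of each gene summed, Npy made up 97.1% ± 0.957 of the TPM of the 10 genes in Wistar rats (SD, n = 4) and 98.8% ± 0.248 of it in SHR (SD, n = 4). The other 9 genes together had between 370 and 819 TPM in Wistar and between 180 and 271 TPM in SHR, without overlap. The sum was highest in Wistar 1, the rat with the highest Vip and Penk.

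**Figure D1:**
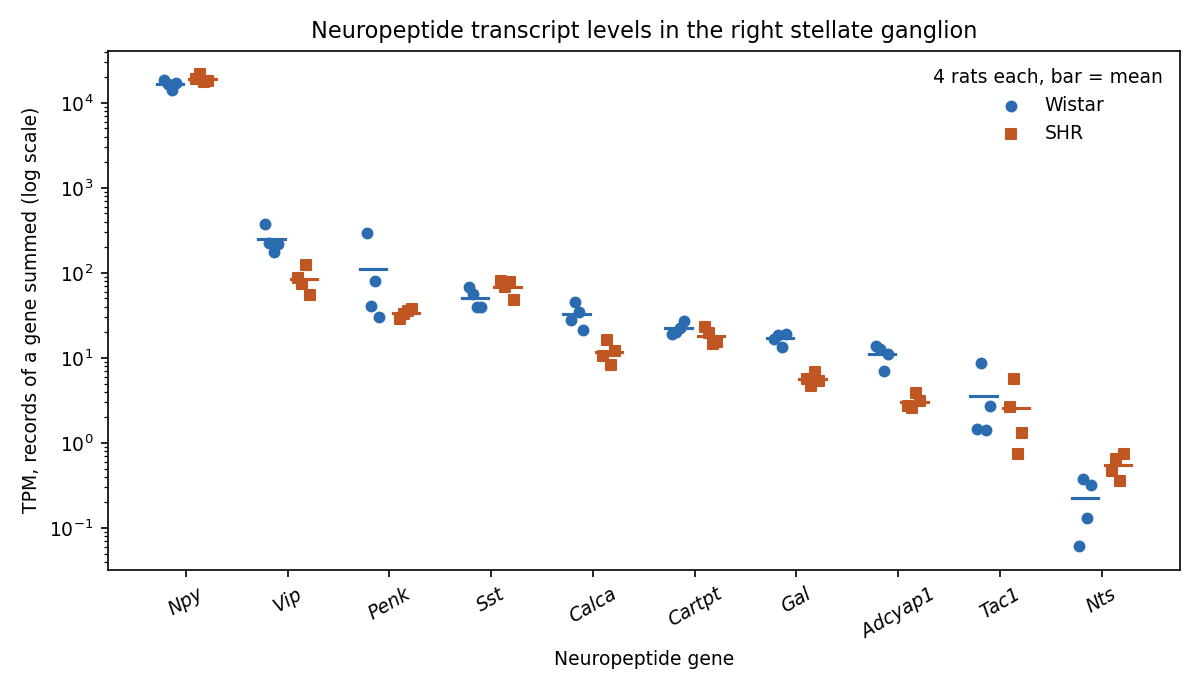
TPM of the 10 neuropeptide genes on a log axis, with the records of a gene summed. Points are single rats (circles, Wistar; squares, SHR; n = 4 each) and short lines are means. Npy lies between 14140 and 21580 TPM, no other gene exceeds 378 TPM, and the strains separate fully for Vip, Calca, Gal and Adcyap1.

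Among the other genes the order in Wistar was Vip, Penk, Sst, Calca, Cartpt, Gal, Adcyap1, Tac1 and Nts, with means of 249, 111, 50.7, 32.5, 22.2, 17.0, 11.1, 3.56 and 0.224 TPM. The ranges of neighbours overlapped from Vip through to Cartpt and from Gal through to Tac1. In SHR the order was Vip, Sst, Penk, Cartpt, Calca, Gal, Adcyap1, Tac1 and Nts, with means of 85.3, 68.4, 33.9, 18.1, 11.8, 5.62, 3.07, 2.60 and 0.554 TPM. In that strain Vip and Sst overlapped, as did Cartpt and Calca, and Adcyap1, Tac1 and Nts in sequence. Penk fell to a mean of 50.5 TPM without Wistar 1, and Tac1 to 1.86 TPM without Wistar 2 and, in SHR, to 1.58 TPM without SHR 2. Vip was first after Npy in both strains, but it stood clear of Sst in Wistar and not in SHR.

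The normalised count, on which the edgeR tests rest, is the estimated count after TMM scaling to a common library size. Npy had normalised counts of 196200, 158500, 138700 and 175300 in Wistar 1 to 4 and 197500, 232800, 158400 and 185900 in SHR 1 to 4. The ranges overlapped, with SHR 2 the highest. The log2 fold change (SHR over Wistar) was 0.21 ± 0.14 (SE), with an adjusted p of 0.467 in edgeR.

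Galanin modulates transmission from sympathetic and vagal nerves, and its gene is a classical axotomy marker of sympathetic neurons. Gal (NM_033237) had normalised counts of 252, 256, 188 and 276 in Wistar 1 to 4 and 84.0, 71.4, 87.5 and 78.0 in SHR 1 to 4. The lowest Wistar rat, Wistar 3, had more than 2 times the count of the highest SHR, SHR 3. The mean was 243 ± 38.1 in Wistar against 80.2 ± 7.09 in SHR (mean ± SD, n = 4 per strain), 3.02-fold lower in SHR. The log2 fold change was -1.59 ± 0.18 (SE), with an adjusted p of 0.001285 in edgeR. These values rest on 203 to 290 reads per Wistar rat and 55 to 93 per SHR. By mean TPM, Gal ranked 4511th of all records in Wistar and 7220th in SHR.

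VIP is a vasodilator that also speeds the heart, and PACAP, the product of Adcyap1, is its close relative and excites sympathetic neurons. Vip (NM_053991) had normalised counts of 11710, 6321, 4846 and 6286 in Wistar 1 to 4 and 2618, 2345, 3200 and 1669 in SHR 1 to 4. Wistar 1 was the highest, and every SHR lay below every Wistar rat. The mean was 7291 ± 3026 in Wistar against 2458 ± 635 in SHR (mean ± SD, n = 4 per strain), 2.97-fold lower in SHR, with a log2 fold change of -1.57 ± 0.28 (SE) and an adjusted p of 0.01427 in edgeR. Without Wistar 1 the log2 fold change was -1.25 and without both rats numbered 1 it was -1.28, with adjusted p of 0.01588 and 0.009746. The call was lost without SHR 2, where the log2 fold change was -1.54 and the adjusted p 0.05213.

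Adcyap1 (NM_016989) had normalised counts of 378, 315, 174 and 287 in Wistar 1 to 4 and 72.9, 70.1, 90.3 and 81.8 in SHR 1 to 4. The strains did not overlap, and as for Gal and Vip, Wistar 3 was the lowest Wistar rat and SHR 3 the highest SHR. The mean was 288 ± 85.3 in Wistar against 78.8 ± 9.18 in SHR (mean ± SD, n = 4 per strain). Adcyap1 was 3.65-fold lower in SHR, with a log2 fold change of -1.87 ± 0.24 (SE) and an adjusted p of 0.0026 in edgeR. The reads behind it were 188 to 393 per Wistar rat and 54 to 96 per SHR. Without both rats numbered 1, the log2 fold change was -1.60 for Gal and -1.68 for Adcyap1, with adjusted p of 0.003854 and 0.006404. Of the 8 tested members, Gal, Vip and Adcyap1 were the 3 whose strains did not overlap, each lower in SHR. Over all tested records, 5.97% had all 4 SHR below all 4 Wistar rats.

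**Figure D2:**
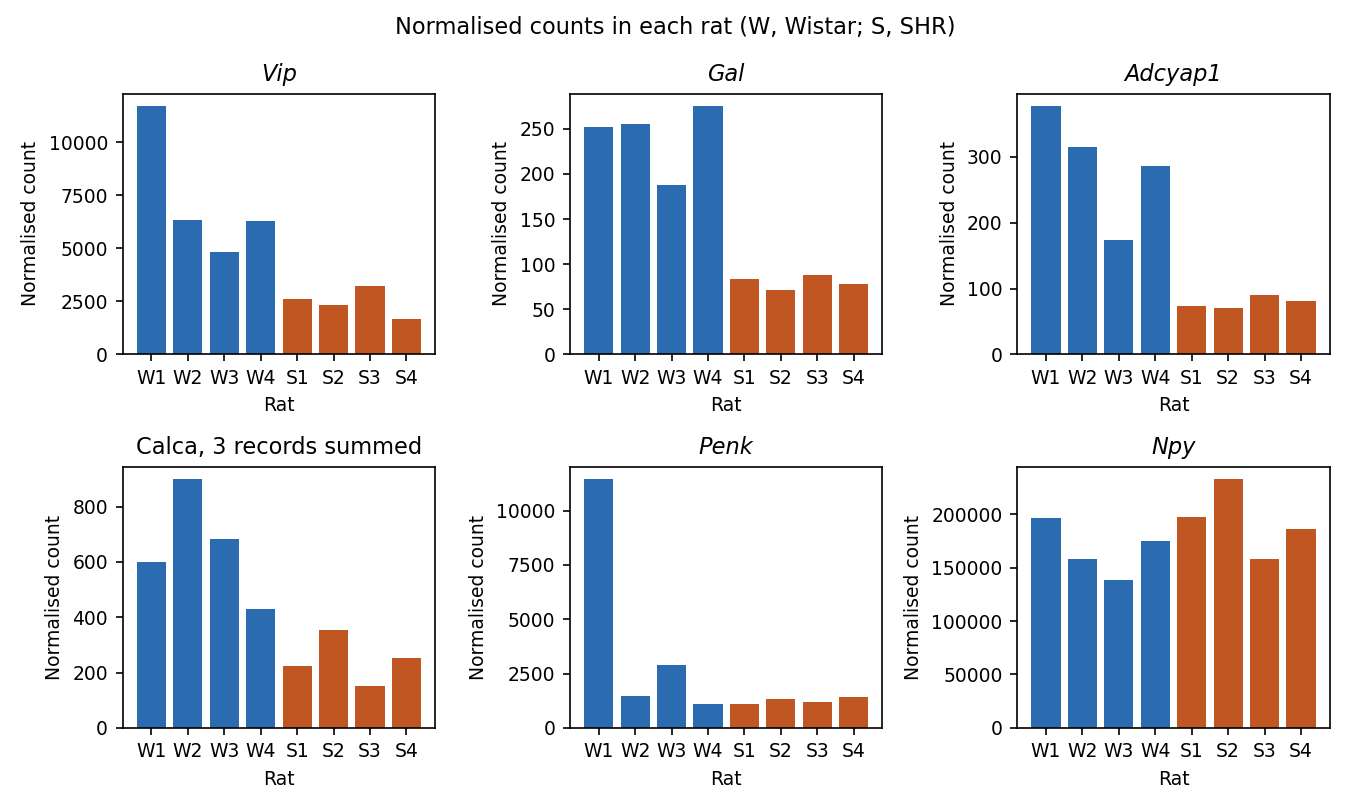
Normalised counts of 6 neuropeptide genes in each rat (blue, W1 to W4, Wistar; orange, S1 to S4, SHR), each panel on its own linear axis from 0. All SHR bars lie below all Wistar bars for Vip, Gal, Adcyap1 and the summed Calca records, the Penk panel is dominated by Wistar 1 at 11440, and the strains overlap for Npy.

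Calca gives rise to calcitonin and to CGRP, a potent vasodilator peptide, by alternative splicing. The member record, NM_017338, held 1.81 estimated reads in Wistar 1 and 0 in the other 7 rats, where a count of 0 allows up to 3 reads per library by counting error alone, and it was too low to test. The reads of the gene were in NM_001033955 and NM_001033956, and the sources used here do not say which product each of the 3 records encodes. Salmon divides reads that fit several records among them, and the sum over the 3 records was a whole number of reads (within 0.01) in all 8 rats, from 453 to 844 in Wistar and from 159 to 273 in SHR. NM_001033955 had normalised counts of 359, 480, 401 and 224 in Wistar 1 to 4 and 128, 160, 71.2 and 176 in SHR 1 to 4. Its log2 fold change was -1.45 ± 0.31 (SE), with an adjusted p of 0.03523 in edgeR. NM_001033956 had a log2 fold change of -1.37 ± 0.34 (SE) and an adjusted p of 0.06766, which misses the threshold. Both records had every SHR below every Wistar rat.

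With the 3 Calca records summed, the gene reached 27.9, 46.0, 34.9 and 21.2 TPM in Wistar 1 to 4 and 10.6, 16.3, 8.20 and 12.2 TPM in SHR 1 to 4. The mean normalised count was 654 ± 195 in Wistar against 246 ± 84.7 in SHR (mean ± SD, n = 4 per strain). Calca was 2.65-fold lower in SHR, with a log2 fold change of -1.41 ± 0.28 (SE) and an adjusted p of 0.02357 over 13106 genes with records summed, of which 1.7% were called as lower in SHR. The call was lost without Wistar 2 (log2 fold change -1.22, adjusted p 0.07524), Wistar 3 (-1.38, 0.06732) or SHR 4 (-1.43, 0.07007). Without both rats numbered 1 the log2 fold change was -1.42 and the adjusted p 0.02618. Summing the records of a gene is an alternative to the test of single records.

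Proenkephalin, encoded by Penk, is the precursor of the enkephalins, opioid peptides that are known to inhibit transmitter release. Penk (NM_017139) had normalised counts of 11440, 1446, 2878 and 1113 in Wistar 1 to 4 and 1118, 1308, 1184 and 1427 in SHR 1 to 4. Wistar 1 was the highest by far and Wistar 3 lay above all SHR. Wistar 2 lay just above the highest SHR and Wistar 4 just below the lowest. The log2 fold change of -1.75 ± 0.64 (SE) did not pass the threshold, with an adjusted p of 0.2076 in edgeR. Without Wistar 1 it was -0.53 ± 0.28 (SE), with an adjusted p of 0.3796. The spread among Wistar rats, an SD of 4875 around a mean of 4220, exceeded the difference between the strains.

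Somatostatin is an inhibitory peptide, and Cartpt encodes the CART peptides that mark some sympathetic neurons. Sst (NM_012659) had normalised counts of 860, 640, 472 and 485 in Wistar 1 to 4 and 985, 850, 839 and 571 in SHR 1 to 4. The ranges overlapped, and the log2 fold change was 0.40 ± 0.22 (SE), with an adjusted p of 0.3938 in edgeR. Without Wistar 1 the log2 fold change of Sst was 0.61, with an adjusted p of 0.1752. Cartpt (NM_017110) had normalised counts of 339, 321, 359 and 456 in Wistar 1 to 4 and 397, 350, 217 and 259 in SHR 1 to 4. SHR 1 and 2 lay within the Wistar range and SHR 3 and 4 below it. Its log2 fold change was -0.27 ± 0.21 (SE), with an adjusted p of 0.5393, and it was -0.47 without both rats numbered 1, with an adjusted p of 0.2607.

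Tac1, which encodes substance P and neurokinin A, and Nts, which encodes neurotensin, were near the limit of detection. Tac1 (NM_012666) had normalised counts of 0, 77.1, 10.6 and 13 in Wistar 1 to 4 and 26.0, 50.9, 2.82 and 7.29 in SHR 1 to 4. Its log2 fold change was -0.21 ± 1.12 (SE), with an adjusted p of 0.9462 in edgeR. Rats with the number 2 were highest in both strains, and the rest overlapped. Tac1 has 3 further records, NM_001124768, NM_001124769 and NM_001124770, and the sum over all 4 was whole in all 8 rats, from 13 to 146 reads. Summed, the log2 fold change was -0.35 ± 0.73 (SE), with an adjusted p of 0.8368. Nts (NM_001102381) held 1, 5, 2 and 5 reads in Wistar 1 to 4 and 7, 8, 5 and 12 in SHR 1 to 4, and was too low to test.

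**Figure D3:**
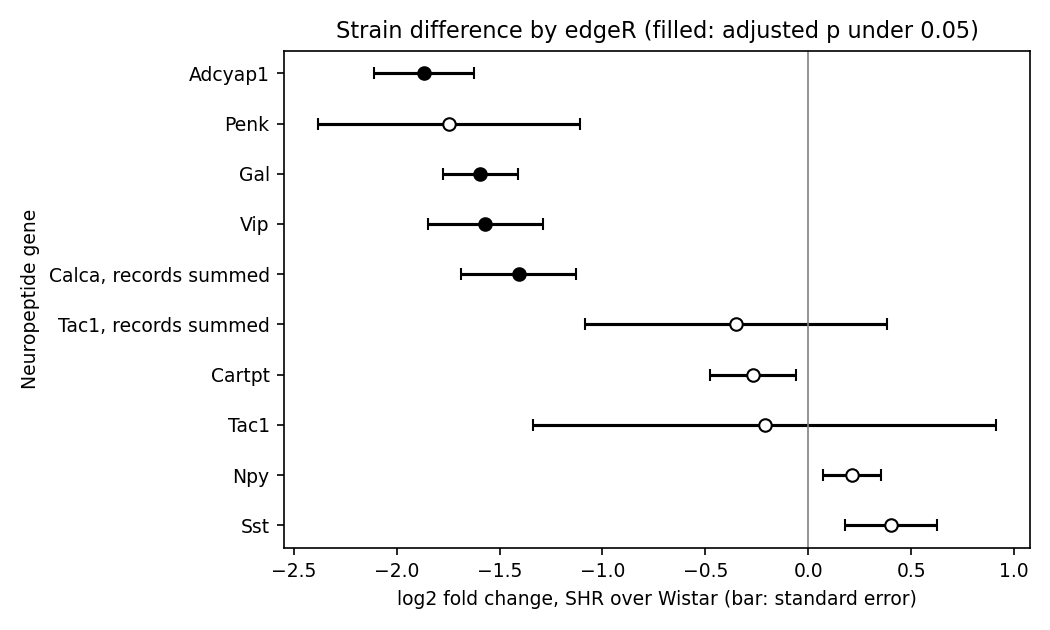
Log2 fold change (SHR over Wistar) of the 8 tested member records and of Calca and Tac1 with their records summed, from edgeR. Points are estimates, bars are standard errors, and filled points have an adjusted p under 0.05. Adcyap1, Gal, Vip and summed Calca lie between -1.87 and -1.41, Penk is at -1.75 with a wide bar and is not called, and Npy and Sst lie above 0 and are not called.

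In the make-up of the 9 genes other than Npy, the shares of Vip, Sst and Nts did not overlap between the strains. The share of Nts rests on 1 to 12 reads per rat, and its own TPM overlapped between the strains. No share over all genes was computed to set beside this. Vip held 46.1% to 59.1% of their summed TPM in Wistar and 30.9% to 45.6% in SHR. Sst held 8.31% to 13.01% in Wistar and 26.9% to 32.9% in SHR, although the level of Sst itself was not called. These shares add up to 100% in each rat, so that a lower level of 1 gene raises the shares of the others. Gal made up 3.80% ± 1.33 in Wistar and 2.48% ± 0.383 in SHR, and Adcyap1 2.38% ± 0.694 and 1.36% ± 0.291 (SD, n = 4 each), and for both the ranges of the strains overlapped.

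**Figure D4:**
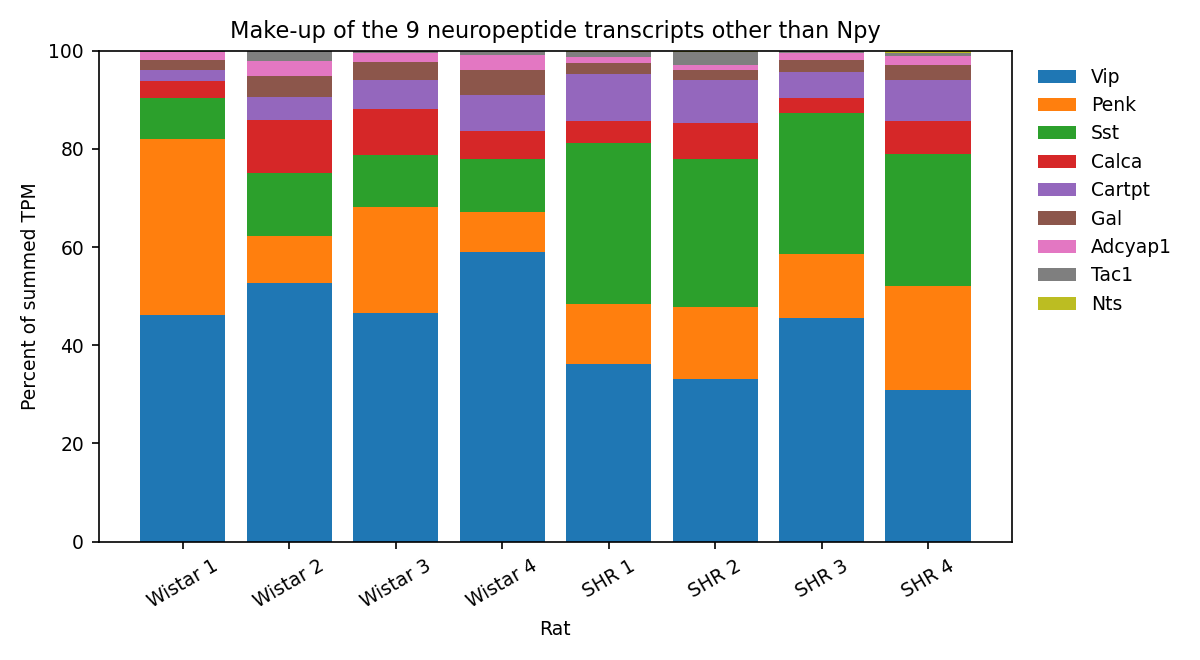
Share of each gene in the summed TPM of the 9 neuropeptide genes other than Npy, as stacked percent for each of the 8 rats, with records of a gene summed. Vip is the largest share in every Wistar rat and SHR, Sst takes 26.9% to 32.9% in the SHR against 8.31% to 13.01% in Wistar, and Penk takes 35.9% in Wistar 1.

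To set the peptides against the noradrenergic neurons in the same ganglia, the TPM of each gene was divided by that of Dbh or Th within each rat, an alternative added after the data had been seen. Th and Dbh did not pass the threshold themselves, with log2 fold changes of -0.14 ± 0.09 and -0.28 ± 0.13 (SE) and adjusted p of 0.4592 and 0.324 in edgeR. Relative to Dbh, the mean log2 ratio was lower in SHR by -1.25 for Vip, -1.31 for Gal, -1.54 for Adcyap1 and -1.15 for summed Calca. Relative to Th the differences were -1.40, -1.45, -1.69 and -1.30. In each of these 8 ratios all SHR lay below all Wistar rats. The 2-sided exact permutation test gave p = 0.02857, the smallest that 4 rats against 4 allow. The same genes already separated fully in TPM before the division, so the ratios are not independent of that result. The ratio of Npy to Dbh was higher in SHR by 0.49 and that to Th by 0.34 on the log2 scale, with overlapping strains (exact permutation test, p = 0.05714 for each). Of the 16 ratios of 8 genes to Dbh and Th compared in this way, 8 were without overlap, and the p-values are unadjusted. The share of all genes without overlap in such ratios was not computed.

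Neuropeptide precursors are cut by prohormone convertases and stored with granins in dense core vesicles. Of 14 tested genes of processing enzymes and granule proteins, 1 was lower in SHR and 0 were higher in edgeR. The log2 fold changes ran from -0.59 to 0.36 with a median of -0.01, against 0.01 over all tested records. The gene that passed was Chga, encoding the granule protein chromogranin A, with normalised counts of 3971 ± 341 in Wistar against 2643 ± 439 in SHR (mean ± SD, n = 4 per strain), which gave a log2 fold change of -0.59 ± 0.13 (SE) and an adjusted p of 0.03694. In TPM the strains overlapped for Chga, with 68.2 to 89.6 in Wistar and 44.7 to 70.3 in SHR. At an unadjusted p under 0.05 there were 2 higher (Pcsk2 and Chgb) and 1 lower (Chga), and DESeq2 called 0 higher and 1 lower. Here and in the following lists, genes that only an unadjusted p or DESeq2 picked out, and Chat and Oprm1, were named after their values had been seen.

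None of the 13 tested receptor genes for the 10 peptides passed the threshold in edgeR. The median log2 fold change was 0.20, from -1.27 to 1.09. Each gene stood by its most abundant record, and for 12 of the 25 receptor genes that record had too few reads to test. The receptor gene Oprm1, with 13 records, was 1 of these. Its most abundant record had normalised counts of 1.08 ± 2.16 in Wistar and 8.74 ± 8.54 in SHR (mean ± SD, n = 4 per strain). The paper, which tested values summarised per gene, lists Oprm1 among its differentially expressed genes. At an unadjusted p under 0.05, 2 of the tested receptor genes were higher in SHR (Npy1r and Adcyap1r1) and 1 was lower (Npy2r). DESeq2 called 1 of them, Adcyap1r1, the receptor for PACAP. Its most abundant record, 1 of 6, had normalised counts of 3428 ± 43.2 in Wistar against 4416 ± 561 in SHR (mean ± SD, n = 4 per strain), which gave a log2 fold change of 0.37 ± 0.10 (SE) and an adjusted p of 0.09564 in edgeR. How reads divide among its 6 records is uncertain. With the records summed, the gene had 26.6 to 28.8 TPM in Wistar and 25.4 to 40.05 TPM in SHR, with overlap. The VIP receptor genes Vipr1 and Vipr2 did not exceed 0.666 TPM in any rat.

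Cholinergic genes were examined because VIP and CGRP occur in cholinergic sympathetic neurons. Of 6 tested, 1 was lower in SHR and 0 were higher. This was Slc18a3, the vesicular acetylcholine transporter, with 506 ± 106 in Wistar against 167 ± 49.8 in SHR (normalised counts, mean ± SD, n = 4 per strain), which gave a log2 fold change of -1.60 ± 0.24 (SE) and an adjusted p of 0.005568 in edgeR. Chat, the enzyme that makes acetylcholine, had a log2 fold change of -0.05 ± 0.25 (SE) and an adjusted p of 0.9481. The median over the 6 genes was -0.17. With an unadjusted p under 0.05 were 2 lower genes (Slc18a3 and Ache) and 0 higher, and DESeq2 called 1 lower and 0 higher. The part of cholinergic neurons in the fall of Vip and Calca was not tested.

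Among the genes of gp130 signalling and the axotomy response, 9 were tested, 1 was lower in SHR and 0 were higher, with a median log2 fold change of -0.11. Stat3, the transcription factor activated by gp130 receptors, had normalised counts of 4080 ± 245 in Wistar against 2561 ± 314 in SHR (mean ± SD, n = 4 per strain), which gave a log2 fold change of -0.67 ± 0.10 (SE) and an adjusted p of 0.00743 in edgeR. The cytokine genes Lif and Il6 and the response gene Socs3 did not exceed 0.532 TPM in any rat and had too few reads to test. The unadjusted p was under 0.05 for 2 lower genes (Stat3 and Ecel1) and 0 higher, and DESeq2 called 1 lower and 0 higher. The part of gp130 signalling in the differences of Gal, Vip and Adcyap1 was not tested. Of 12 activity and cyclic AMP response genes 0 passed the threshold in either direction in edgeR and 0 in DESeq2, with 1 higher (Egr1) and 1 lower (Creb1) at an unadjusted p under 0.05 and a median log2 fold change of 0.34.

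Of 41 other neuropeptide precursor genes in the files, 13 had enough reads to test and 0 passed the threshold in edgeR or in DESeq2. Those with an unadjusted p under 0.05 were 3 higher in SHR (Pnoc, Apln and Nppc) and 0 lower, where 8.29% of all tested records were higher. Pnoc did not overlap between the strains in TPM, with 7.6 to 18.15 in Wistar and 19.71 to 26.04 in SHR. The summed level of the 41 genes was 125 to 155 TPM in Wistar and 131 to 148.5 TPM in SHR, with overlap. Adm, the adrenomedullin gene, made up most of it, with 85.5 to 110 TPM in Wistar and 75.5 to 92.5 TPM in SHR, and is named here after its values were seen.

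Of 11 noradrenergic neuron genes, 1 was lower in SHR and 0 were higher in edgeR. That gene was Ddc, which encodes the enzyme that turns L-DOPA into dopamine. Its most abundant record, 1 of 3, was tested, with a log2 fold change of -1.08 ± 0.10 (SE) and an adjusted p of 0.0003058. At an unadjusted p under 0.05 there were 2 lower (Ddc and Gata3) and 0 higher, and DESeq2 called the same 2 lower and 0 higher.

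Calca, Tac1, Adcyap1 and Gal are also transcribed in sensory neurons, so sensory neuron markers were read in the same libraries. Of 8 tested, P2rx3 was higher in SHR and Avil was lower, with log2 fold changes of 1.77 ± 0.35 and -1.01 ± 0.11 (SE) and adjusted p of 0.02428 and 0.0007693 in edgeR. The P2rx3 value is that of its most abundant record, 1 of 3, and with the records summed the gene had 3.64 to 4.13 TPM in Wistar and 3.70 to 6.995 TPM in SHR, with overlap. The summed level of the 10 markers in the files was 738 to 894 TPM in Wistar and 371 to 520 TPM in SHR, and nearly all of it was Avil, which had 714 to 866 and 343 to 481 TPM. Without Avil the sum went the other way, with 22.2 to 27.3 TPM in Wistar and 27.6 to 38.4 TPM in SHR, without overlap. The sum with Avil therefore describes Avil and not the other markers. The defining nociceptor genes were low in all rats, with Scn10a at or below 0.206 TPM, Trpv1 at or below 1.07 TPM and Mrgprd at 0 in 6 of 8 rats. The part of sensory neurons in the peptide differences was not tested.

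The other marker lists held 0 genes past the threshold in edgeR in either direction: 9 of satellite glia, 5 of Schwann cell myelin, 9 of endothelial and mural cells, 9 of macrophages and lymphocytes, 6 of fibroblasts, and 3 each of chromaffin and adrenal cortex cells, mast cells, adipocytes and striated muscle. At an unadjusted p under 0.05, these lists held 1 satellite glia gene that was higher (Gfap) and 1 adipocyte gene that was lower in SHR (Cidec). DESeq2 called Cidec and no other gene of these lists. In each of these lists the summed TPM of the strains overlapped. It ran from 971 to 1693 in Wistar and from 895 to 1205 in SHR for satellite glia, and from 761 to 1314 and from 506 to 1574 for fibroblasts. Their part in the differences of Gal, Vip, Adcyap1 and Calca was not tested.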

How the data were processed

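RNA of 8 right stellate ganglia was sequenced as read pairs. The authors mapped the reads to rat RefSeq transcripts (labels: rn6) with Salmon 0.8.2, correcting GC and positional bias. The labels name a stranded mRNA kit, the study's methods SMARTer amplification. The deposited values are an estimated count, not normalised between rats, and a TPM by the authors for each of 18314 records, beside each record's length and effective length. A symbol was found for 17360 records in a RefSeq table (GRCr8).

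Counts were rounded and tested with edgeR 4.0.16 (glmQLFit, glmQLFTest, TMM, filterByExpr) in R 4.3.3 without covariates, as 4 SHR against 4 Wistar, with Benjamini-Hochberg adjustment over 13659 records. Normalised counts are TMM-scaled to a mean effective library of 32217816. The SE was taken as the size of the log2 fold change over the root of F. DESeq2 1.42.0, limma 3.58.1 on log2(TPM + 1), other filters and scalings, a replicate block and leaving out each rat were alternatives. The fits were tested on simulated counts. Within each strain no 2 libraries agreed within sampling noise.

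All 10 members were named. Of each fixed list at most the 2 genes with the smallest p past the threshold were named, with defining markers near 0 and every record that shares a gene with a member. Other list genes were named after their values had been seen. In the tests, a list gene with several records stood by its most abundant record. The members and lists were chosen with earlier results of these data known. Nothing beyond the labels says that the rats were independent in housing or dissection, so p-values measure the spread between these 8 libraries. Intervals and limits from counts cover counting error only.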

Additional observations from a re-analysis of the deposited data

Results flagged for a closer look

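In groups of 4 rats, 1 rat was compared with the nearest of the others relative to the range of its group (Dixon's test at the 95% level). Of 19 groups, 3 passed, where chance gives about 0.95. Penk had a normalised count of 11440 in Wistar 1, against 1113 to 2878 in the other Wistar rats, and Vip was highest in the same rat without passing. Tac1 (NM_012666) had 77.1 in Wistar 2, against 0 to 13 in the other Wistar rats. The Calca record NM_017338 had 1.74 in Wistar 1 and 0 in the other Wistar rats, and a group with 3 values of 0 passes at any value above 0 in the remaining rat.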

How the results depend on the processing

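Under every alternative run, the called members were lower in SHR and numbered 2 to 4. Gal and Adcyap1 were called in every alternative that gave an adjusted p, with log2 fold changes from -1.69 to -1.44 and from -2.04 to -1.55, and Npy, Sst, Penk and Cartpt stayed uncalled with their direction. Over all records, 389 were called (158 higher and 231 lower in SHR). The count was 782 (353 and 429) with DESeq2, 852 (377 and 475) with DESeq2 and a length offset, 758 (345 and 413) with DESeq2 on genes with records summed, and 1068 (303 and 765) without both rats numbered 1. Leaving out 1 rat gave 237 to 454 records, 92 to 198 of them higher and 136 to 256 lower, and the cause of these shifts was not tested. The lowest count, 237, was without Wistar 2. Same-numbered rats did not deviate together (correlations of -0.29, -0.12, -0.16 and -0.04). These correlations cannot show whether the numbers pair the rats by dissection or batch, and the labels do not say. With the replicate number as a block, 132 records were called (44 higher and 88 lower) and 2 members, Gal (adjusted p 0.03272) and Adcyap1 (0.04529), while Vip (log2 fold change -1.53, adjusted p 0.05244) and summed Calca (-1.42, 0.05215) missed the threshold. Vip also missed it without SHR 2. Tac1 had no stable direction, with 0.021 under the block and -1.02 to 1.44 when 1 rat was left out, among them 1.44 without Wistar 2, 0.17 without SHR 3 and 0.09 without SHR 4. Summing TPM over the records of a gene moved 6 genes to another place in the Wistar order and 5 in the SHR order, since the Calca record alone is near 0. Nts rests on 1 to 12 reads per rat and could not be tested.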
